A study of Homo sapiens with 6 samples.

Results

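The genes described here build and run the cullin-RING ligases, the family of ubiquitin ligases that is switched on when the ubiquitin-like protein NEDD8 is attached to the cullin subunit. A list of 44 genes was fixed by name and covers the NEDD8 enzymes, the cullins and their RING partners, the DCN1-like cofactors, the COP9 signalosome, the CAND exchange factors, the substrate adaptors and MDM4. Each gene was represented by its brightest probe set over all 6 arrays. Of the 44, 43 had a probe set that the platform annotation assigns to that gene alone, and all 43 passed the filter on dim probe sets, among 14308 genes tested. UBE2M, the main NEDD8-conjugating enzyme, was not analysed here.

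The arrays came from LS174T, a mucin-producing human colon adenocarcinoma line, given CompE (250 nM) or DMSO, its vehicle, for 48 h. Each condition had 3 separate cultures with 1 array each, so the p-values measure the spread between cultures of 1 line. The labels give CompE as an abbreviation only. Compound E, commonly shortened this way, inhibits gamma-secretase, the protease that releases the active part of Notch receptors. All samples are 1 cell line in the same medium, and the labels mention no inhibitor of neddylation in these cultures. The title of the series pairs NOTCH1 with neddylation in T cell leukaemia, so the question that can be asked of these arrays is whether the mRNAs of the neddylation machinery of a colon line differ after CompE.

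In the conjugation pathway, the heterodimer of NAE1 and UBA3 activates NEDD8, UBE2M or UBE2F carries it, and a RING protein (RBX1 or RNF7) together with a DCN1-like protein transfers it to a cullin. The COP9 signalosome removes NEDD8 again, CAND proteins bind cullins that carry none, and exchangeable adaptors decide which substrate is brought to the ligase. In intestinal epithelium the adaptors FBXW7 and BTRC are known for the turnover of Notch, MYC and beta-catenin.

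The treatment was visible on the arrays. HES1, the repressor gene that Notch induces, read 307, 306 and 256 in CompE cultures, against 804, 872 and 756 in DMSO cultures, a log2 difference of -1.49 ± 0.10 (SE; limma, adjusted p = 0.00198). All 12 colon epithelium markers examined lay above the level of the array's Bacillus controls (an intensity of 45.7) in both groups. Of them CDX2, an intestinal transcription factor gene, rose and CEACAM6, an adhesion protein gene, fell (0.43 and -0.29; the CEACAM6 call ended without any 1 array). Of 12 markers of leukocytes, fibroblasts and endothelium, 8 passed the filter, 4 lay above that level in both groups (LYZ, PECAM1, COL1A1 and COL1A2), and 0 passed in limma (2 were lower at a raw p under 0.05). PTPRC, PDGFRB and CDH5 were under the filter. Array medians ran from 36.9 to 38.6. The 3' to 5' ratio of ACTB probe sets was 1.49 to 1.53 in CompE arrays and 1.42 to 1.46 in DMSO arrays, and the hybridisation controls averaged 11.69 to 11.83 log2 units in CompE and 11.61 to 11.63 in DMSO. The part of these array differences in the small changes below was not tested. In a bulk culture, fewer cells of a kind and less RNA per cell cannot be told apart.

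The machinery moved little. Of the 43 members, 1 rose past an adjusted p of 0.05 (MDM4) and none fell, which leaves 42 that did not pass in limma. Over all genes tested 7.14% passed, with 4.56% higher and 2.57% lower. Before adjustment 7 members had a p under 0.05, 4 of them higher and 3 lower, beside 24.5% of all genes. The groups did not overlap for 18 of the 43 members, 11 higher and 7 lower. That share was above the 32.2% of all genes (19.1% higher and 13% lower). None of these counts was tested against the background. The median log2 change of the members was 0.03, beside 0.02 over all genes, and the members spread from -0.21 to 0.37.

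The intervals show what size of change these 6 arrays leave possible. For 41 of the 43 members the 95% interval of the log2 difference lay inside a 1.5-fold change in either direction, whereas 75.1% of all genes met the same limit. The 2 sets differ in level: 42 members lay above the Bacillus control level in both groups, beside 11465 of the 14308 genes. The part of intensity in this contrast was not tested.  The median standard error was 0.06 for members and 0.08 for all genes. The members outside the limit were DCUN1D2 and CAND2. All signs are relative to the authors' scaling. Centring on the hybridisation controls, which read 0.14 log2 units higher in CompE, moved the median of all genes to -0.12 and that of the members to -0.11.

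**Figure D1:**
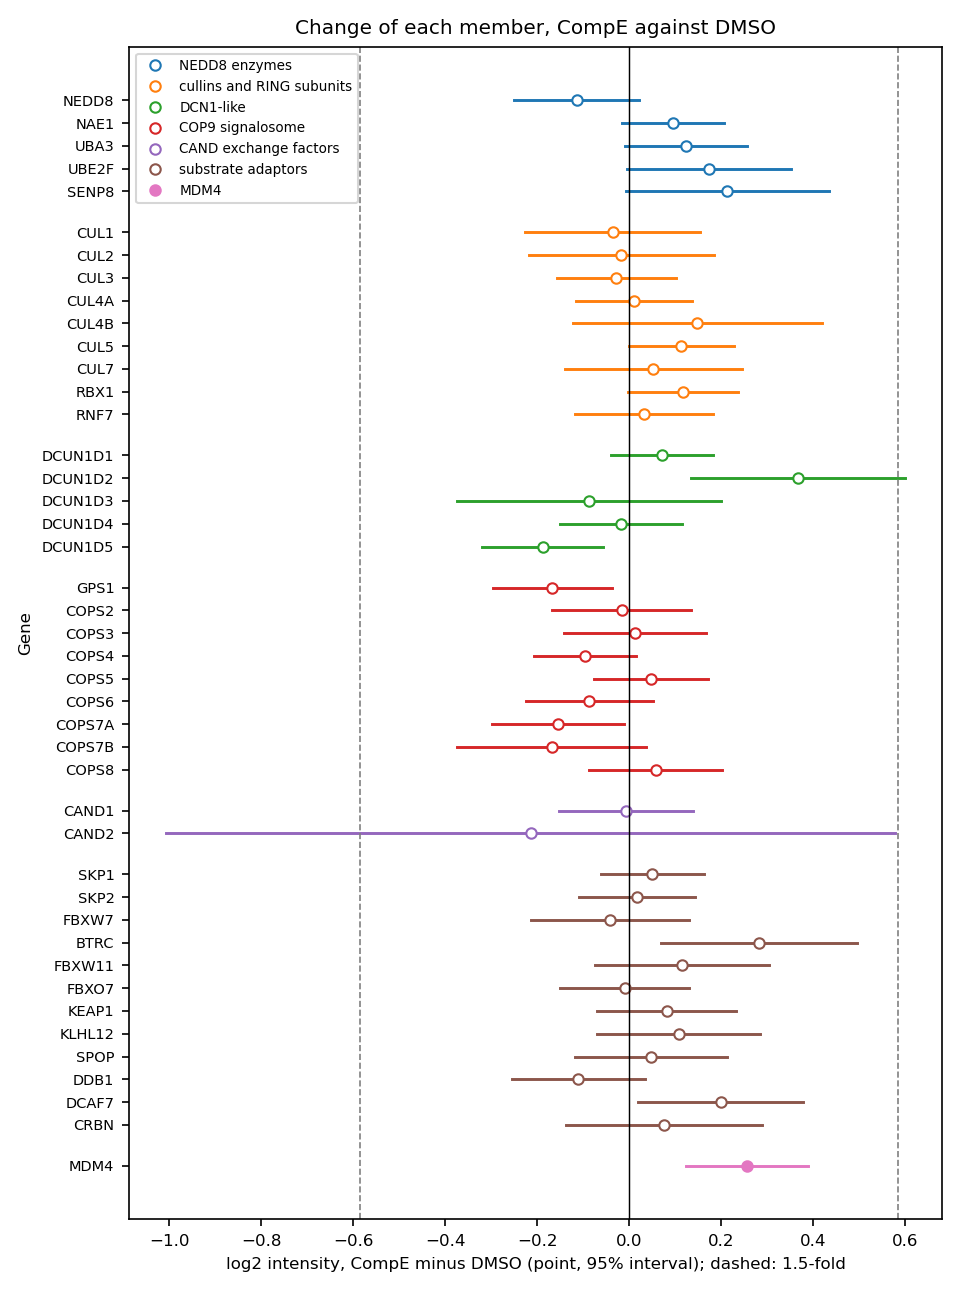
Log2 intensity difference (horizontal axis, CompE minus DMSO) of the 43 members with a probe set, coloured by role, with 95% limma intervals from 3 arrays per group; filled points passed an adjusted p of 0.05 and the dashed lines mark 1.5-fold. MDM4 is the filled point, at 0.26, and the intervals of DCUN1D2 and CAND2 cross a dashed line.

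The promoters of MDM4, DCUN1D2 and DCUN1D5 are shown because these are the members with the smallest p-values. Each sequence is the 250 bases before the RefSeq start in GRCh38.p14, read 5′ to 3′ on the gene's strand, at chr1:204516156-204516405 (plus strand), chr13:113490712-113490961 (minus strand) and chr11:103092161-103092410 (minus strand) in that order. Capitals mark matches on either strand to TGGGAA, the core of the motif bound by the Notch partner RBPJ, or to CACGNG, bound by HES-type repressors; the search of the second motif also takes up the E-box CACGTG.
MDM4: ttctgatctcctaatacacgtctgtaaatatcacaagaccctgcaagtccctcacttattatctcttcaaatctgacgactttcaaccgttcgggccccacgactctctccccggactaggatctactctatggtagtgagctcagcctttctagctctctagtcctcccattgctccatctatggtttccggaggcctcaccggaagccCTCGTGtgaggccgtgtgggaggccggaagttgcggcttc
DCUN1D2: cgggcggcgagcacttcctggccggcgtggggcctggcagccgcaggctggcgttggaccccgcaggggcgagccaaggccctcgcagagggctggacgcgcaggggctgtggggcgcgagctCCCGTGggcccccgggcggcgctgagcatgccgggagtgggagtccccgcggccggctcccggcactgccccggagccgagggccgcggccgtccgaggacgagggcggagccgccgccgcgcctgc
DCUN1D5: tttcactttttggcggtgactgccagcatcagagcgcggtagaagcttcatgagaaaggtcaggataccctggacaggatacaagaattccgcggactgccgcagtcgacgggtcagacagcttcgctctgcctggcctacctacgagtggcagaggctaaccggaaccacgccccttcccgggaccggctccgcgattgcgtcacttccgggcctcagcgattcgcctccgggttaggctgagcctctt
MDM4 and DCUN1D2 hold 1 match each, both to CACGNG, and DCUN1D5 holds 0. The table gave promoters for 41 members (all but CUL7, COPS5 and BTRC), in 70 windows because some genes have several starts. TGGGAA was in 10.0% of these windows and in 20.8% of all 35116 windows of the same length. CACGNG was in 38.6% of the members' windows and in 26.7% of all. These shares describe letters only, and the windows of 1 gene can overlap.

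NEDD8 itself and the enzymes around it differed by little. The NEDD8 gene read 1504, 1605 and 1509 in CompE cultures, against 1714, 1601 and 1682 in DMSO cultures. The groups overlapped, and the difference of -0.11 did not pass (adjusted p = 0.267; 95% interval -0.25 to 0.02). NAE1, the regulatory subunit of the activating enzyme, had 3071, 3090.2 and 2986 in CompE, against 2819.6, 2882 and 2864 in DMSO. Each CompE value lay above each DMSO value, by a log2 difference of 0.09 (adjusted p = 0.261). UBA3, the catalytic subunit of the same enzyme, had 1334, 1231 and 1341 in CompE, against 1205, 1196 and 1182 in DMSO, again without overlap and with a similar difference of 0.12 (adjusted p = 0.23).

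The remaining enzymes were the conjugating enzyme UBE2F, which serves CUL5, and SENP8, the protease that matures NEDD8 and removes it from proteins other than cullins. UBE2F read 1004, 879 and 862 in CompE, against 822, 809 and 798 in DMSO (log2 difference 0.17, adjusted p = 0.212). CompE replicate 1 stood above the other CompE arrays, and the groups did not overlap. SENP8 read 167, 182 and 165 in CompE, against 165, 143 and 136 in DMSO, and its difference of 0.21 was the largest of the 5 enzyme genes (adjusted p = 0.216). DMSO replicate 1 fell among the CompE values. Of these 5 differences 4 were above 0 with a median of 0.12, but 2 were above 0 when centred on the hybridisation controls, and 0 passed in limma (0 at a raw p under 0.05).

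The cullins are the scaffolds of the ligases, and 0 of the 9 scaffold and RING genes passed in limma (0 at a raw p under 0.05). Their median was 0.03, with 6 differences above 0 as scaled by the authors and 1 when centred on the hybridisation controls. CUL1, the scaffold that binds SKP1 and F-box proteins, read 387, 411 and 359.6 in CompE cultures, against 372, 391 and 424 in DMSO cultures, with overlap (log2 difference -0.04, 95% interval -0.23 to 0.15). CUL3, the scaffold for BTB adaptors, read 2203, 2128 and 2082 in CompE, against 2205, 2094 and 2239.7 in DMSO (difference -0.03, 95% interval -0.16 to 0.10). CUL4A, which binds DDB1, had the smallest difference of the group, with 858, 836 and 867 in CompE, against 869, 813 and 862 in DMSO (difference 0.010).

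Its paralogue CUL4B had the largest, 0.15, with 1129.9, 1038 and 1017 in CompE, against 1071, 823 and 995 in DMSO. DMSO replicate 2 lay below the other 5 arrays, and the difference did not pass (adjusted p = 0.47). CUL5, scaffold for SOCS-box adaptors, and RBX1, the RING subunit shared by most cullins, were slightly above DMSO without overlap. CUL5 differed by 0.11 (adjusted p = 0.207) and RBX1 by 0.12 (adjusted p = 0.21). Of the 3 other probe sets of CUL5 past the filter, 1 was above 0. The RING subunit RNF7, the partner of CUL5, differed by 0.03, CUL2, the scaffold of the VHL ligase, by -0.02, and CUL7, which assembles with FBXW8, by 0.05.

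The DCN1-like proteins, which help to place NEDD8 on cullins, spread more widely and in both directions. DCUN1D2 read 123, 128 and 114 in CompE cultures, against 105, 84.9 and 93.7 in DMSO cultures. Each CompE value lay above each DMSO value, and the difference of 0.37 ± 0.09 was the largest of all members, at a modest intensity, yet it did not pass (adjusted p = 0.0793). It passed with the lowest 60% of probe sets left out (adjusted p = 0.0311) and with a trended robust variance (adjusted p = 0.0484). Its adjusted p was 0.162 with no filter, 0.113 with median centring and 0.126 centred on the hybridisation controls. With the replicate number as a block it was 0.175, and without any 1 array 0.0774 to 0.204. DCUN1D5 lay the other way, with 1837, 1822 and 1743 in CompE, against 1966, 2116 and 2075 in DMSO. All its CompE values were below all DMSO values (difference -0.19 ± 0.05, adjusted p = 0.0973), although its other probe set past the filter gave 0.09. With the mean over probe sets the difference was -0.051 (adjusted p = 0.687). It passed with a trended robust variance (adjusted p = 0.00634) and when centred on the hybridisation controls (adjusted p = 0.0241). With the replicate number as a block its adjusted p was 0.227, and without any 1 array 0.14 to 0.237.

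DCUN1D4 was nearly level, with 365, 354 and 342 in CompE, against 364, 367 and 344 in DMSO (difference -0.02). DCUN1D1, a relative of yeast Dcn1, differed by 0.07, although 4 of its 5 other probe sets past the filter were below 0. DCUN1D3, a membrane-anchored member of the family, differed by -0.09, and its dimmer probe set by -0.38. Of the 5 genes 0 passed in limma, and 1 was higher and 1 lower at a raw p under 0.05. Their median was -0.02.

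**Figure D2:**
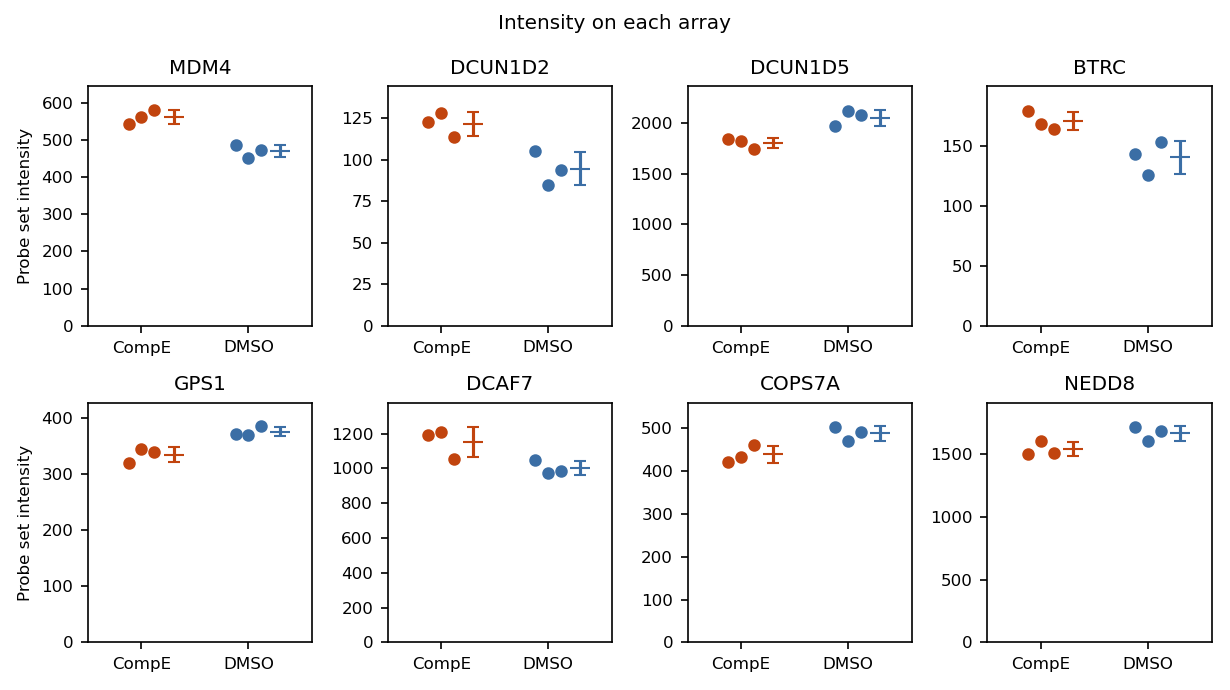
Probe set intensity (vertical axes, linear and from 0) on each of the 3 CompE and 3 DMSO arrays for the 7 members with a raw p under 0.05 and for NEDD8; points are arrays and the bars are mean ± SD. The groups do not overlap except for NEDD8, and each gap is small beside the level, as for GPS1 with 319.5 to 344 in CompE and 369.6 to 385 in DMSO.

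The COP9 signalosome, which cleaves NEDD8 from cullins, was the role with the most values below DMSO. Of its 9 subunit genes 6 were below 0 and 5 were lower without overlap, beside 13% of all genes, but 0 passed in limma (2 lower at a raw p under 0.05). This difference in share was not tested. Centred on the hybridisation controls, all 9 were below 0, and GPS1, COPS6 and COPS7B passed as lower. Under that scaling 1552 of the 14308 genes passed as lower, and the median of all genes was -0.12. As scaled by the authors, the median log2 difference of the 9 genes was -0.09. Averaged over the 9 genes, CompE arrays stood at 9.82, 9.82 and 9.77 log2 units and DMSO arrays at 9.87, 9.86 and 9.87. GPS1, also called subunit CSN1, read 319.5, 344 and 339 in CompE cultures, against 371, 369.6 and 385 in DMSO cultures (difference -0.17 ± 0.05, adjusted p = 0.123). COPS7A, one of a pair of alternative subunits, read 422, 431 and 461 in CompE, against 502, 469 and 491 in DMSO (difference -0.15, adjusted p = 0.18).

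Its alternative COPS7B had 358, 355 and 298 in CompE, against 379, 378 and 375 in DMSO. CompE replicate 3 was far below the other 5 arrays, and the difference of -0.17 did not pass (adjusted p = 0.281). COPS4 differed by -0.10 and COPS6 by -0.09; both were lower without overlap and neither passed. COPS5, the catalytic subunit that carries out the cleavage, read 1367, 1290.3 and 1351 in CompE, against 1260.5, 1329 and 1289 in DMSO. These values overlapped, with a difference of 0.05 (95% interval -0.08 to 0.17). COPS3 had the smallest difference of the complex, with 1333, 1444 and 1269 in CompE, against 1359, 1328 and 1319.7 in DMSO (difference 0.012). COPS2 and COPS8 differed by -0.02 and 0.06. The dimmer probe set of COPS2 differed by -0.23, without overlap, and did not pass (limma over probe sets, adjusted p = 0.169). The 4 other probe sets of COPS8 past the filter were above 0.

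CAND1, which exchanges the substrate receptors of cullin ligases, read 1262, 1146 and 1247 in CompE cultures, against 1249, 1183 and 1238 in DMSO cultures, a difference of -0.0068 (95% interval -0.15 to 0.14). Its paralogue CAND2, known from muscle, was the dimmest member, with 27.3, 16.5 and 34.1 in CompE, against 22.3, 38.5 and 27.9 in DMSO. All 6 values lay under the Bacillus control level, so that no order can be read from them.

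Among the substrate adaptors and their linkers 9 of 12 differences were above 0, with a median of 0.06, but 2 when centred on the hybridisation controls and 6 with the mean of probe sets. In limma 0 passed, and 2 were higher and 0 lower at a raw p under 0.05. BTRC, the F-box protein that recognises phosphorylated beta-catenin and the NF-kB inhibitor, read 179, 168 and 164 in CompE cultures, against 143, 126 and 153 in DMSO cultures. The groups did not overlap (difference 0.28 ± 0.09, adjusted p = 0.117), but both other probe sets of BTRC past the filter were below 0. DCAF7, a WD40 adaptor of CUL4 ligases, read 1195, 1211 and 1052 in CompE, against 1046, 977 and 986 in DMSO. DMSO replicate 1 and CompE replicate 3 nearly met (difference 0.20, adjusted p = 0.17), and all 5 other probe sets of DCAF7 past the filter were below 0, between -0.32 and -0.05.

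FBXW7, the F-box protein that marks cleaved NOTCH1, MYC and cyclin E for degradation, read 319, 303 and 354 in CompE, against 328, 335 and 339 in DMSO. The CompE values lay on both sides of the DMSO values (difference -0.04, 95% interval -0.21 to 0.13). SKP2, the F-box protein that targets p27, read 1900.5, 1842 and 1763 in CompE, against 1830.2, 1830.2 and 1777 in DMSO (difference 0.02, 95% interval -0.11 to 0.14). KEAP1, the BTB adaptor that holds the antioxidant factor NRF2 in check through CUL3, read 889, 929.7 and 829 in CompE, against 863, 817 and 821 in DMSO (difference 0.08, 95% interval -0.07 to 0.23).

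FBXO7, an F-box protein of mitochondrial quality control, had the smallest difference of the adaptors, with 1039, 1009 and 959 in CompE, against 1044, 1016 and 968 in DMSO (difference -0.010). DDB1, the linker between CUL4 and its adaptors, was the adaptor gene furthest below 0, at -0.11 (adjusted p = 0.31). SKP1, the linker between CUL1 and F-box proteins, differed by 0.05, and CRBN, the CUL4 adaptor bound by thalidomide, by 0.08. FBXW11, the paralogue of BTRC, differed by 0.11, and its dimmer probe set by -0.012. The BTB adaptors KLHL12, which acts on secretory coat proteins, and SPOP, which acts on nuclear substrates, differed by 0.11 and 0.05.

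MDM4, a partner of MDM2 that restrains p53 and is not a subunit of a cullin ligase, was the member that passed. It read 543, 560.5 and 579 in CompE cultures, against 485, 451 and 473 in DMSO cultures. The groups were well separated, and the gene rose by 0.26 ± 0.05 log2 units, a fold of 1.19 (limma, adjusted p = 0.0483). The call was narrow: with any 1 array left out the adjusted p was 0.104 to 0.138, with no filter it was 0.115, and with the mean over probe sets it was 0.685. The probe set used is of a type whose probes can match other transcripts, as are those used for RNF7 and SKP2. Of the 5 dimmer probe sets of MDM4 3 were above 0 and 2 below, from -0.31 to 0.46.

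Several probe sets per gene gave a further look at the same arrays. The table held 123 probe sets of members, of which 112 passed the filter. When all 26962 probe sets past the filter were tested in place of genes, 0 of the 112 passed in limma, MDM4 included, beside 4.28% of all probe sets (2.72% higher). Of the 69 probe sets not used above, 43 had the sign of the brightest probe set of their gene. Those of UBE2F, SENP8, COPS8 and FBXW7, among others, all shared its sign. All those of DCAF7 and BTRC and 4 of 5 of DCUN1D1 had the opposite one, as had the 1 other probe set each of DCUN1D5, FBXW11 and FBXO7. One dimmer probe set of CUL2 differed by -0.23 (adjusted p = 0.0984), whereas the brighter one differed by -0.02. All probe sets of a gene were read on the same 6 arrays and are not replicates.

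**Figure D3:**
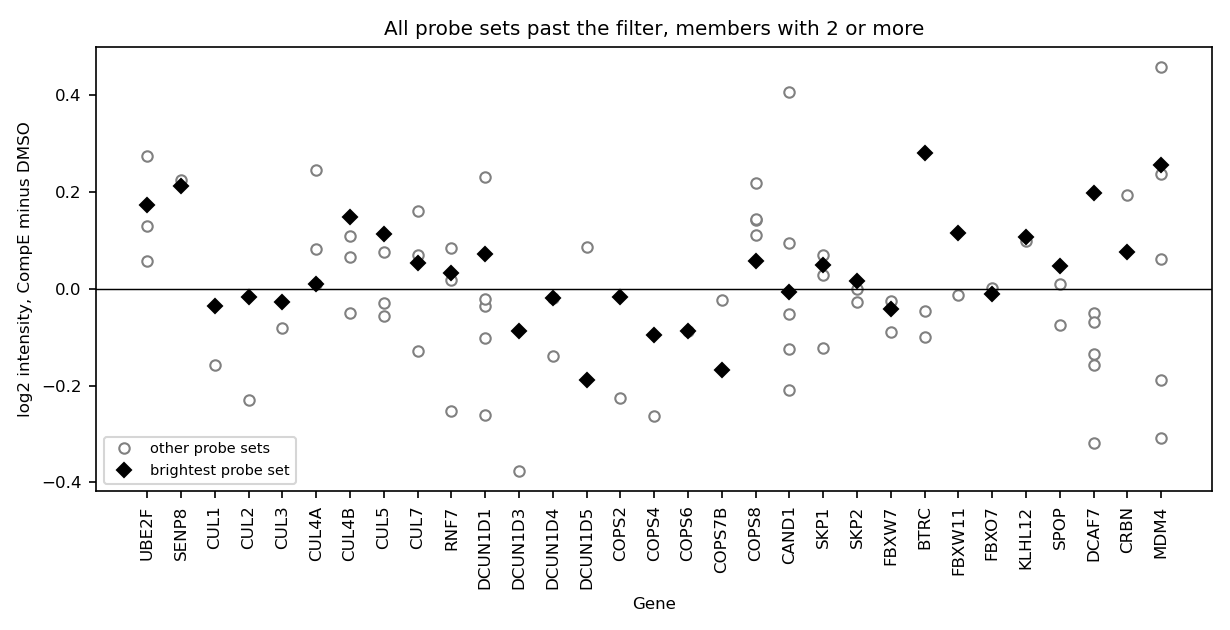
Log2 intensity difference (vertical axis, CompE minus DMSO) of every probe set past the filter for the 31 members with 2 or more; black diamonds are the brightest probe set of a gene and open circles the others. Open circles lie on both sides of 0 for many genes, as for DCAF7, where all 5 are below 0 and the diamond is at 0.20.

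Lists of other genes of the same ligases gave counts near the background. Over 5 lists of ligase parts, 164 genes were tested, of which 7 rose, 5 fell and 152 did not pass. That is 7.32%, beside 7.14% of all genes. Their median log2 difference was 0.04. Of 16 cofactors tested 0 rose and 2 fell, which is 12.5%, with a median of 0.01. They were ARIH2, a ligase that works with neddylated CUL5, and NUB1, a protein that brings NEDD8 to the proteasome. ARIH2 read 492, 442 and 459.5 in CompE cultures, against 579, 589 and 581 in DMSO cultures (difference -0.33, adjusted p = 0.03), but with the mean over its probe sets the difference was -0.12 (adjusted p = 0.291). NUB1 had the smaller difference, -0.23 (adjusted p = 0.0458), and gave 0.056 with the mean over its probe sets.

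The largest rises among these ligase parts were in BTB adaptors of CUL3. Of 41 tested, 3 rose and 0 fell in limma, which is 7.32%, beside 7.14% of all genes, with a median of 0.08. At a raw p under 0.05 there were 13 higher and 2 lower, beside 2145 higher and 1366 lower of the 14308 genes, and this difference in share was not tested. RHOBTB1, a BTB protein that binds CUL3, read 195, 185 and 177 in CompE cultures, against 110.5, 102 and 106 in DMSO cultures. That is a log2 difference of 0.80 ± 0.06 (adjusted p = 0.00259). KLHL24, an adaptor known for the turnover of a keratin in skin, read 409, 369.9 and 407 in CompE, against 236, 238 and 238 in DMSO (difference 0.74, adjusted p = 0.00287). KLHL42, an adaptor for the microtubule-severing protein katanin, rose by 0.48 (adjusted p = 0.0164), and this call was kept in 1 of the 6 fits with an array left out. The groups did not overlap for any of the 3 genes. With the mean over probe sets KLHL24 stood at 0.44 and KLHL42 at 0.27, and both still passed.

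Of 49 other F-box genes tested 1 rose and 2 fell, which is 6.12%, beside 7.14% of all genes, with a median of 0.03. KDM2A, an F-box histone demethylase, rose by 0.26, FBXO6, which binds glycoproteins, fell by 0.32, and LMO7, a protein of cell junctions with an F-box-like region, fell by 0.74 (adjusted p = 0.0318, 0.0323 and 0.0363). Of 23 other DCAF genes 1 rose and 0 fell in limma, which is 4.35%. At a raw p under 0.05 there were 5 higher and 0 lower, beside 2145 higher and 1366 lower of the 14308 genes. This difference in share was not tested. The DCAF gene that rose was PHIP, a chromatin-binding adaptor, at 0.29 (adjusted p = 0.0498). Of 35 adaptors that bind elongins B and C, 2 rose and 1 fell, which is 8.57%. The elongin-binding genes were PCMTD2, a methyltransferase-like adaptor (0.40), SOCS7, of the cytokine suppressor family (0.27), and SPSB1, an adaptor for inducible nitric oxide synthase (-0.25). With 1 array left out, the calls of ARIH2, NUB1, KDM2A, FBXO6, LMO7, PHIP, SOCS7 and SPSB1 ended in all 6 fits and that of PCMTD2 in 4 of 6, whereas RHOBTB1 and KLHL24 passed in all 6. With the mean over probe sets KDM2A stood at 0.037 (adjusted p = 0.685), SOCS7 at 0.11 (adjusted p = 0.341) and PHIP at 0.16 (adjusted p = 0.188), and none of these 3 passed.

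**Figure D4:**
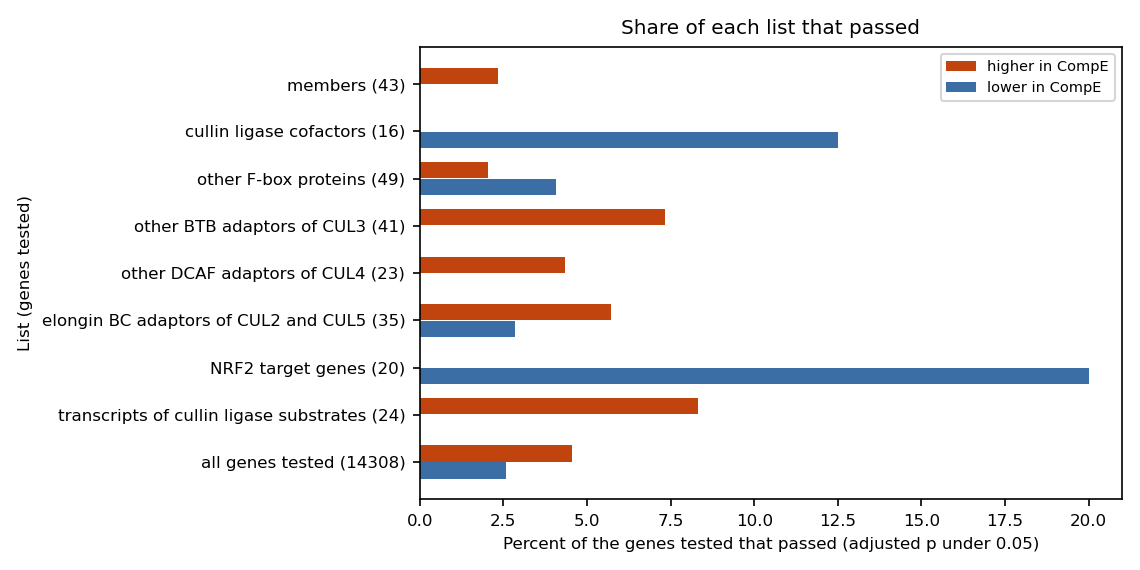
Percent of the genes tested in each list that passed an adjusted p of 0.05 (horizontal axis), split into higher and lower in CompE, with the number of genes tested in brackets. The members show 2.33%, all of it higher, and the NRF2 targets 20%, all of it lower, beside 4.56% higher and 2.57% lower over all genes. Differences between these shares were not tested.

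Downstream of the adaptors, the mRNAs of known cullin ligase substrates mostly did not pass. Of 24 tested 2 rose and 0 fell in limma, which is 8.33%, beside 7.14% of all genes, with a median of 0.03. At a raw p under 0.05 there were 5 higher and 1 lower, beside 2145 higher and 1366 lower of the 14308 genes. The 2 that rose were NOTCH1 and JUN, both proteins that FBXW7 recognises. JUN, a subunit of the transcription factor AP-1, read 1467, 1419.7 and 1479.8 in CompE cultures, against 884, 905 and 829 in DMSO cultures (difference 0.74, adjusted p = 0.00259), and NOTCH1 differed by 0.78 (adjusted p = 0.00173). These are transcript levels and say nothing of protein turnover.

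The targets of NRF2, the factor that KEAP1 and CUL3 degrade, had the largest share past the threshold of the 7 other lists. Of 20 tested, 4 fell and 0 rose in limma, which is 20%, beside 2.57% lower over all genes. At a raw p under 0.05 there were 6 lower and 1 higher, beside 1366 lower and 2145 higher of the 14308 genes. These differences in share were not tested, and the list was chosen with earlier results of these data known. Of the 20, 15 differences were below 0, and the median was -0.10, beside 0.02 over all genes. AKR1B10, an aldo-keto reductase gene, read 206, 206 and 178 in CompE cultures, against 435, 439 and 448 in DMSO cultures. All CompE values lay far below the DMSO values (difference -1.17 ± 0.07, adjusted p = 0.00173).

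SLC7A11, the cystine transporter gene, read 973, 976 and 873 in CompE, against 1552, 1379 and 1399 in DMSO (difference -0.62, adjusted p = 0.0115). ME1, the cytosolic malic enzyme gene, read 1326, 1303 and 1250.5 in CompE, against 1922, 1753 and 1735 in DMSO (difference -0.48, adjusted p = 0.0127). SRXN1, the sulfiredoxin gene, fell by 0.43 (adjusted p = 0.0326) and is named, with its values already known, because it completes the genes of the list that fell; its call ended in all 6 fits with 1 array left out. The count was 1 without CompE replicate 1 and 2 without DMSO replicate 2, and 3 without any other array; AKR1B10 passed in all 6 of these fits.

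Other classical members of the list did not pass. NQO1, a quinone reductase gene, stood at -0.26 (adjusted p = 0.0552). GCLC and GCLM, the subunits of the enzyme that starts glutathione synthesis, stood at -0.14 and -0.11, TXNRD1, a thioredoxin reductase gene, at -0.07, and HMOX1, the heme oxygenase gene, at 0.03. The mRNA of NRF2 itself (NFE2L2) read 3136, 3067 and 2904 in CompE, against 3219, 3214 and 3084 in DMSO (difference -0.06, adjusted p = 0.516), and KEAP1 and CUL3 did not pass either, as given above.

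**Figure D5:**
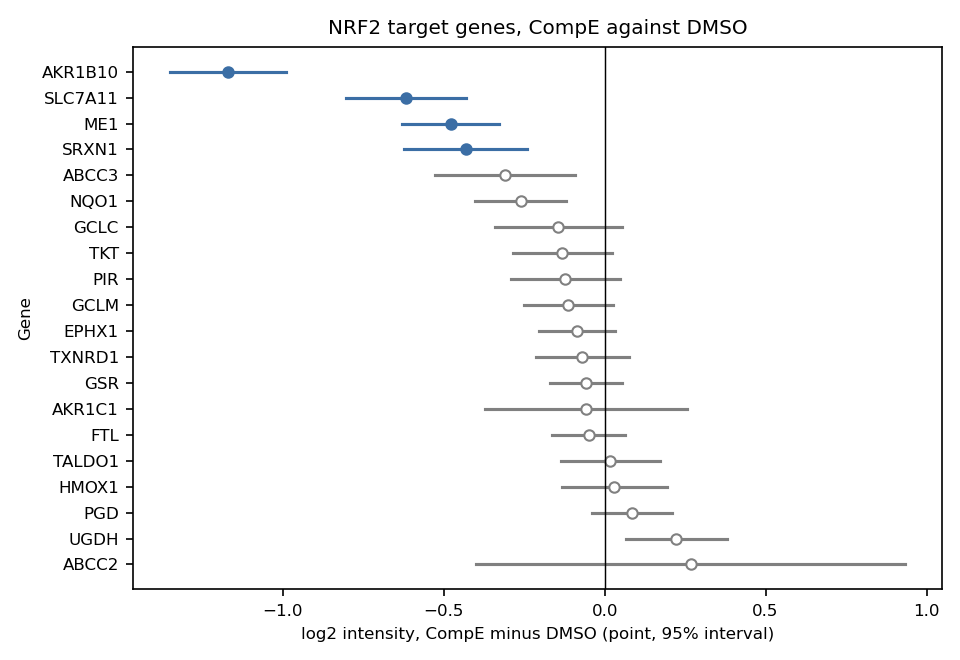
Log2 intensity difference (horizontal axis, CompE minus DMSO) of the 20 NRF2 target genes tested, with 95% limma intervals from 3 arrays per group; filled points passed an adjusted p of 0.05. AKR1B10 lies lowest at -1.17, the other filled points between -0.62 and -0.43, and 15 of 20 points are left of 0.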

How the data were processed

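The authors labelled RNA with a biotin kit primed at the 3' end, hybridised Human U133 Plus 2.0 arrays and normalized intensity between arrays in dChip, according to the design text and per the labels. The deposited table holds linear intensities of 54674 probe sets. It does not mark the 10896 probes the authors selected. No scan dates were used here.

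For each probe set, an intensity under 1 was raised to 1 before log2, with no second normalization. The 62 control probe sets and the lowest 40% by mean log2 (below 4.61) were left out. Names follow the platform's 2016 annotation, updated by Entrez identifier; 41091 probe sets had 1 gene, 1800 several, and 11721 are unnamed here. CompE was compared with DMSO by limma 3.58.1 (R 4.3.3), two-sided, with Benjamini-Hochberg adjustment over 14308 genes and a threshold of 0.05; "rose" and "fell" mean past it. The Bacillus level is the 95th percentile of 27 probe sets. Precision is limited by the number of arrays.

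The members and lists were chosen with earlier results of these data known. All members are accounted for. Values on every array are given for members that passed, had a raw p under 0.05, or had the largest or smallest difference of their role, and for central genes of the pathway. Other genes are up to 3 per list with the smallest p among those that passed; HES1, SRXN1, NQO1, GCLC, GCLM, TXNRD1, HMOX1 and NFE2L2 were added with their values known. Alternatives were other filters, scalings and variance models, a higher floor, the mean of probe sets, single probe sets, the least variable probe sets, the replicate number as a block and each array left out. Same-numbered arrays deviated with r = -0.10 to 0.02, so numbers were not taken as pairs. Promoters are from RefSeq, GRCh38.p14.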

Additional observations from a re-analysis of the deposited data

How the results depend on the processing

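The number of calls depended on the filter, the scaling, the variance model and single arrays. Of 43 members 1 passed in the report's fit. The count was 0 with no filter, with quantile normalization, with median centring, with the mean of probe sets, and with the replicate block. It was 0 without each of the 6 arrays. It was 2 with the lowest 60% left out and 4 with a trended robust variance. Among the 10896 least variable probe sets it was 9 of 34, beside 2939 of the 6872 genes then tested. Probe sets are selected there on the variance that the test uses, and DCAF7 then stood on another probe set and at -0.14. Centred on hybridisation controls, 6 fell and 0 rose, the members' median moved to -0.11 and that of all genes to -0.12. The members' median was 0.02 to 0.04 without 1 array. With single probe sets as the unit of the test, 0 members passed.

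Over all genes 1021 passed in the report's fit (653 higher and 368 lower). The count was 363 with no filter, 1751 with the lowest 60% left out, 1892 centred on hybridisation controls (340 higher and 1552 lower), 2939 among the least variable probe sets, 2254 with a trended robust variance and 102 with the replicate block, and 252 to 519 with 1 array left out. For the 7 other lists together it was 18 in the report's fit, and 8, 37, 26, 60, 44 and 3 in the same order of settings, with 5 to 9 without 1 array. For NRF2 targets it was 7 with the lowest 60% left out, centred on hybridisation controls, among the least variable probe sets and with a trended robust variance, 1 with the replicate block and 1 to 3 without 1 array. For the BTB adaptors it was 8, 5, 13 and 11 under those 4 settings, 5 with array weights, 1 with the replicate block and 2 to 3 without 1 array. The number of genes tested was 19775 with no filter and 10843 with the lowest 60% left out. Among the least variable probe sets it was 6872. These held 134 genes of the 7 other lists, 15 NRF2 targets and 25 BTB adaptors. NUB1 changed sign to 0.056 with the mean of probe sets. Except where stated, the cause was not tested. The number of arrays limits the precision, and the call of MDM4 ended without any 1 of the 6 arrays.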
